A study of Homo sapiens with 12 samples.

Results

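The MYC and MAX network is a family of basic helix-loop-helix leucine zipper transcription factors, and 10 of its genes are described here, taken by symbol from the 63677 genes counted in each library. They are the activators MYC and MYCL, the common partner MAX, the antagonists MXD1, MXD3, MXD4, MXI1 and MNT, the second partner MLX, and MGA, a very large MAX partner of a repressive Polycomb complex. All 10 had enough counts to be tested. RNA was sequenced from 3 basal-like breast cancer lines after knock-down of a nuclear lncRNA (Ensembl gene ENSG00000258910), with 2 libraries for each line and treatment and 12 in all.

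In this network MAX pairs with itself or with one of several partners, and the partner sets what the pair does at the DNA element called an E-box. MYC and its relative MYCL bring in coactivators and raise the output of growth genes, while the MXD proteins, MXI1 and MNT bring in the SIN3 and histone deacetylase corepressor. MLX replaces MAX as partner of some of the same repressors and of the glucose sensors MLXIP and MLXIPL. MYC is a frequent driver in basal-like breast cancer, and MXD1, MXD4 and MXI1 are known to accompany exit from the cell cycle.

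The 6 groups were MDA-MB-468, SUM149PT and HCC38 cells, each given either of 2 treatments. KD cells received LNA1 and LNA2, a pair of antisense gapmers against the lncRNA, at a final 50 nM. LNA NS cells received a non-targeting gapmer in the same way. Cells were transfected at seeding, the medium was changed after 6 h and RNA was collected at 24 h. By the study's reporting form the lines had not been authenticated. The study states that its experiments were repeated, but not for these libraries in particular whether both of one treatment stem from independent cultures, and the p-values therefore cover the spread between these libraries only, which may be technical. In bulk RNA, fewer cells with a transcript and less of it per cell cannot be told apart.

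The lncRNA was lower in every KD library than in any LNA NS library of its line, at −4.75 (MDA-MB-468), −4.41 (SUM149PT) and −3.09 (HCC38) on the log2 scale. Gene counts ran from 32187835 to 56191152 per library. Immune markers were scarce: the leukocyte gene PTPRC had 13 counts in all 12 libraries together and the T cell gene CD3D had 0. Summed over 10 immune markers, levels were 11.8 to 24.7 CPM in KD libraries and 11.6 to 29.5 CPM in LNA NS libraries. Mesenchymal and stromal markers, 12 genes, were not scarce, at 86.7 to 2794 CPM in KD and 70.5 to 2386 CPM in LNA NS libraries. Basal markers, 11 genes with KRT5 among them, summed to 575.4 to 5427 CPM in KD and 541.4 to 8993 CPM in LNA NS libraries. KRT5, a basal keratin, averaged at least 1322 CPM in each MDA-MB-468 and SUM149PT group, but 47.9 CPM in KD and 61.1 CPM in LNA NS libraries of HCC38. The estrogen receptor gene ESR1 did not exceed an average of 7.02 CPM in any group. Yet the 10 luminal markers, ESR1 included, summed to 1281 to 4004 CPM in KD libraries and 1298 to 5440 CPM in LNA NS libraries.

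The promoters that hold a perfect E-box are shown because the E-box is the element this network binds, so a member that carries one could itself be read by the network. RefSeq promoter windows from 250 bases before to 50 bases after the start (GRCh38.p14) were found for 9 of the members, 14 windows in all. The motif shown is CACGTG, which reads the same on both strands. Of 35116 promoters of the same length 7.26% hold it, a share per window and not per gene. Of the 9 members, 3 hold it once each, written here in capitals, 5′ to 3′ on the strand of the gene: MXD4 at −238 from the start (chr4:2262060-2262359, minus strand), MNT at −193 (chr17:2401011-2401310, minus strand) and MLX at −50 (chr17:42566850-42567149, plus strand). Words of E2F factors were searched as well, and 3.31% of the 35116 promoters hold one. Among the members MGA held one, TTTGGCGC at −65. A match is a description of the letters and no evidence of binding.
MXD4: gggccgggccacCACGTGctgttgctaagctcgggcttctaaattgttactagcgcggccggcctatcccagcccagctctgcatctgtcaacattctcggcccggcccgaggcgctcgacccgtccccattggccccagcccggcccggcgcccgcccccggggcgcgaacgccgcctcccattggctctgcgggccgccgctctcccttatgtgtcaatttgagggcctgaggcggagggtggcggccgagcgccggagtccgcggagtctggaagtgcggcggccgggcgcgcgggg
MNT: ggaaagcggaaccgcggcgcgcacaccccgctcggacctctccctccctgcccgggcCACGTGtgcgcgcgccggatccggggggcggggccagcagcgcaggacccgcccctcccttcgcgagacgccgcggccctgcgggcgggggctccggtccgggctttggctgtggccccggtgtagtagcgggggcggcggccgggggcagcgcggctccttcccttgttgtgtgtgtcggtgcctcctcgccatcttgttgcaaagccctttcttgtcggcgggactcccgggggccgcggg
MLX: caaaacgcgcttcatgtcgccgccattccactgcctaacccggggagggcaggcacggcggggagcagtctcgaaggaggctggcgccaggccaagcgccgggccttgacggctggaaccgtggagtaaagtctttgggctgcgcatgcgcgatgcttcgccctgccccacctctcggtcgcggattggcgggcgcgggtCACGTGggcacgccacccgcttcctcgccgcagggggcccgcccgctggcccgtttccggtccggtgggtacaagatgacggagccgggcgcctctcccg

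Whether the network shifted after knock-down was asked gene by gene in each line. MYCL, MXD4 and MXI1 were higher in KD than in LNA NS cells of all 3 lines, and MXD1 in MDA-MB-468 and HCC38. MAX, MXD3 and MNT fell in MDA-MB-468 and SUM149PT, and MYC fell in SUM149PT. Of the 10 members, 9 passed an adjusted p under 0.1 in MDA-MB-468 (4 rose, 5 fell), where 50.6% of all 21325 genes tested did (24.9% rose, 25.7% fell). In SUM149PT 7 passed (3 rose, 4 fell), against 38.0% of all genes (20.0% rose, 18.0% fell). In HCC38 the count was 4 (4 rose, 0 fell, by edgeR and also by DESeq2), against 34.0% of all genes (15.5% rose, 18.4% fell). With the correction for the trend of counts with gene span, 8 passed in HCC38 (4 rose, 4 fell), against 34.5% of all genes. At an unadjusted p under 0.05 in edgeR, 1 member was lower in HCC38 KD cells, MAX. On the average of the 3 lines all 10 passed (4 rose, 6 fell), against 54.8% (28.4% rose, 26.5% fell). The median log2 fold change of the 10 was −0.16, −0.07 and −0.03 in MDA-MB-468, SUM149PT and HCC38, beside 0, 0.03 and 0.01 over all genes tested.

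**Figure D1:**
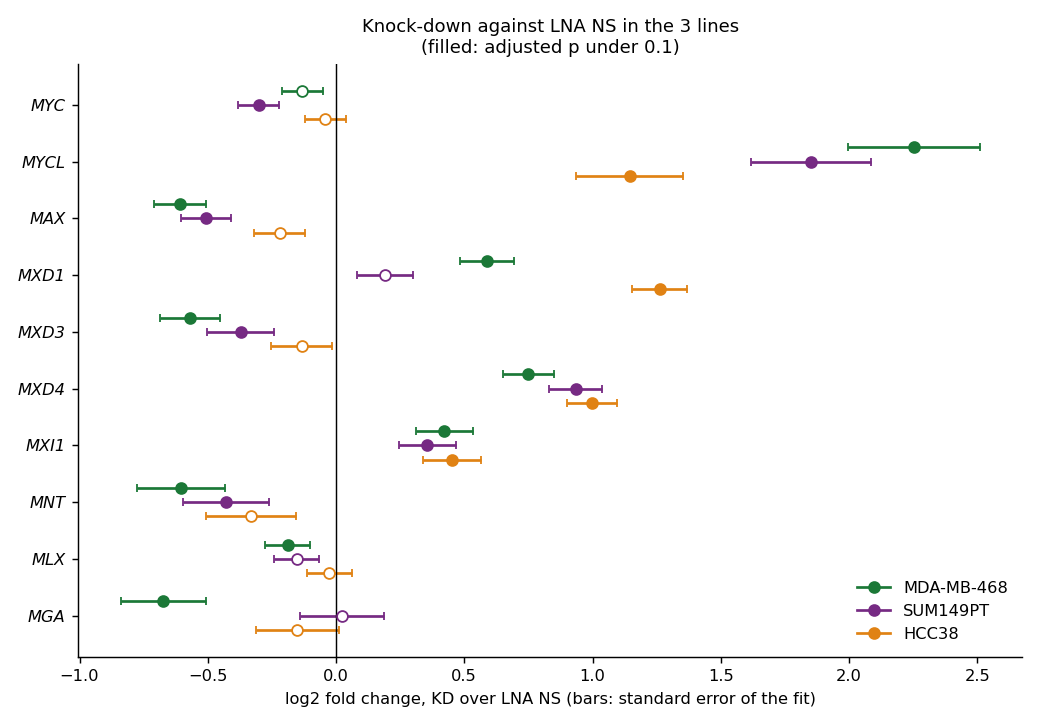
Each point is the log2 fold change of a member, KD over LNA NS, in one line from the edgeR fit, with its standard error as a bar, and filled points passed an adjusted p under 0.1. MYCL, MXD4 and MXI1 lie to the right of 0 in every line, and MAX, MXD3 and MNT to the left, with open points in HCC38. The near-0 points of MYC in MDA-MB-468 and of MYC, MAX, MLX and MGA in HCC38 change side under another scaling or a correction for gene span.

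MYC, the central activator, lies on chromosome 8 (128747680 to 128755197 of GRCh37). Its level, in CPM (counts scaled to library size with TMM factors), was 350.1 and 333 CPM in SUM149PT KD cells, against 436 and 405 CPM in LNA NS cells. The libraries did not overlap and MYC fell there by 0.30 on the log2 scale (standard error 0.0799, adjusted p = 0.00899, here and throughout by the quasi-likelihood method of edgeR adjusted after Benjamini and Hochberg). In MDA-MB-468 it had 177 and 178 CPM in KD cells and 190.4 and 199 CPM in LNA NS cells, a difference of −0.13 (log2, adjusted p = 0.207, not passed). HCC38 had 296 and 275 CPM in KD cells and 295 and 293 CPM in LNA NS cells, so the groups overlapped, with a log2 difference of −0.04 (adjusted p = 0.752). Without the first SUM149PT LNA NS library the fall in that line was 0.24 and missed the threshold (adjusted p = 0.117). With a correction for the trend of counts with gene span, MYC passed also in MDA-MB-468 (−0.28, adjusted p = 0.0106) and HCC38 (−0.19, adjusted p = 0.0916).

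MYCL, a close relative of MYC first known from lung cancer, lies on chromosome 1 (40361100 to 40367928) and was the scarcest member, with 20 to 100 counts per LNA NS library and 109 to 257 per KD library. It had 2.51 and 2.92 CPM in MDA-MB-468 KD cells, against 0.604 and 0.532 CPM in LNA NS cells. In SUM149PT the levels were 3.79 and 3.68 CPM in KD cells, against 1.205 and 0.847 CPM in LNA NS cells. HCC38 KD cells had 4.70 and 4.60 CPM, against 2.16 and 2.05 CPM in LNA NS cells. Every KD library was above both LNA NS libraries of its line. MYCL rose 4.76-fold in MDA-MB-468 (log2 2.25 ± 0.257 standard error, adjusted p = 3.37e-06), 3.61-fold in SUM149PT (1.85 ± 0.234, adjusted p = 2.53e-05) and 2.21-fold in HCC38 (1.14 ± 0.208, adjusted p = 0.000707). These calls held under all 10 alternative settings and with each library left out. MYCL overlaps the antisense gene MYCL-AS1, and since the strand setting of the counting is not given, reads of the pair cannot be told apart.

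MAX, the partner that MYC and the antagonists share, lies on chromosome 14 (65472892 to 65569413). MDA-MB-468 KD cells had 25.2 and 22.2 CPM, against 35.1 and 37.1 CPM in LNA NS cells. SUM149PT KD cells had 43.8 and 41.5 CPM, against 58.4 and 62.9 CPM in LNA NS cells. HCC38 KD cells had 31.0 and 32.9 CPM, against 37.1 and 37.3 CPM in LNA NS cells. The KD libraries lay below the LNA NS libraries in all 3 lines. MAX fell by 0.61 in MDA-MB-468 (standard error 0.101, adjusted p = 0.000131) and by 0.51 in SUM149PT (standard error 0.0990, adjusted p = 0.00106), while −0.22 in HCC38 did not pass (adjusted p = 0.120) and was 0.0045 with the correction for gene span. MAX overlaps FNTB on the other strand.

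**Figure D2:**
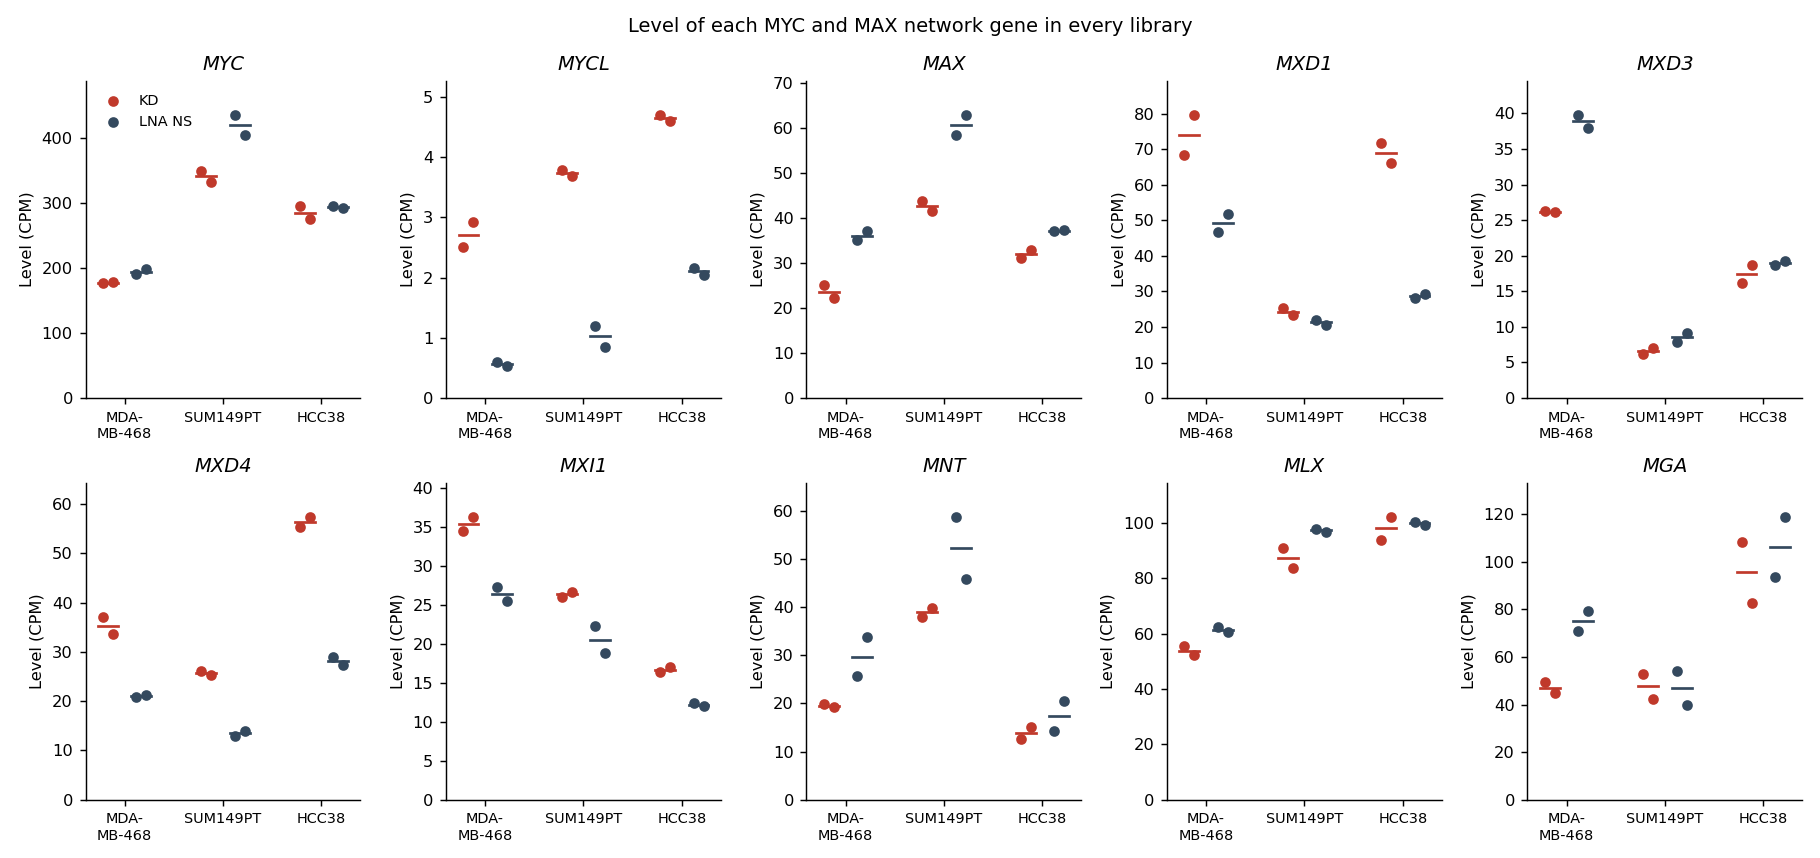
Each panel gives one member, with its level in CPM (linear axis from 0) in the 12 libraries by line, KD left of LNA NS, and a short bar at the mean of the 2 libraries. MYCL, MXD1, MXD4 and MXI1 have both KD points above both LNA NS points in each line, and MAX and MXD3 have both below. The share of all genes that separate in this way was not counted.

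MXD4 rose in all 3 lines. It lies on chromosome 4 (2249159 to 2263836) and encodes a MAX partner that recruits SIN3. Its level was 37 and 33.7 CPM in MDA-MB-468 KD cells, against 20.8 and 21.2 CPM in LNA NS cells. In SUM149PT it was 26.2 and 25.3 CPM in KD cells, against 13 and 13.9 CPM in LNA NS cells. In HCC38 it was 55.3 and 57.4 CPM in KD cells, against 29.0 and 27.4 CPM in LNA NS cells. The groups did not overlap in any line, and MXD4 rose 1.68-fold in MDA-MB-468 (adjusted p = 1.75e-05), 1.91-fold in SUM149PT (adjusted p = 6.80e-06) and 2.00-fold in HCC38 (adjusted p = 2.70e-06), each call holding under all alternatives and with each library left out. The difference between the lines did not pass (adjusted p = 0.372).

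MXD1, also called MAD1, is the antagonist that rises when many cell types differentiate, and lies on chromosome 2 (70124820 to 70170077). HCC38 KD cells had 71.7 and 66.3 CPM, against 28.1 and 29.4 CPM in LNA NS cells, a rise of 2.40-fold (log2 1.26 ± 0.107, adjusted p = 6.27e-07). MDA-MB-468 KD cells had 68.6 and 79.7 CPM, against 46.7 and 51.9 CPM in LNA NS cells, a rise of 0.59 on the log2 scale (standard error 0.105, adjusted p = 0.000262). In SUM149PT the levels were 25.3 and 23.4 CPM in KD cells, against 22 and 20.6 CPM in LNA NS cells, and 0.19 on the log2 scale did not pass (adjusted p = 0.212). MXD1 was the member whose change differed most plainly between lines (adjusted p = 0.000606 for the difference), in every alternative and with each library left out. MXD1 shares a strand and some sequence span with SNRNP27.

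MXI1, an antagonist of the same class, lies on chromosome 10 (111967363 to 112047123). MDA-MB-468 KD cells had 34.6 and 36.4 CPM, against 27.4 and 25.6 CPM in LNA NS cells. SUM149PT KD cells had 26.0 and 26.7 CPM, against 22.4 and 18.8 CPM in LNA NS cells. HCC38 KD cells had 16.4 and 17 CPM, against 12.4 and 12.0 CPM in LNA NS cells. The rises were small and alike, at 1.34-fold in MDA-MB-468 (adjusted p = 0.00516), 1.28-fold in SUM149PT (adjusted p = 0.0234) and 1.37-fold in HCC38 (adjusted p = 0.00784), and the difference between lines did not pass (adjusted p = 0.900). Without the second LNA NS library or the second KD library of SUM149PT the adjusted p there was 0.278 and 0.103. MXI1 is the one member with a long perfect match to a gapmer on its transcribed strand, of 14 bases, a length that 0.276% of 20686 genes reach. The level of MXI1 was higher in KD cells, and whether a gapmer acted on its RNA was not tested.

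MXD3, the antagonist that is highest in dividing cells, moved the other way. It lies on chromosome 5 (176728462 to 176739758). MDA-MB-468 KD cells had 26.3 and 26.1 CPM, against 39.8 and 38.0 CPM in LNA NS cells, a fall of 0.57 on the log2 scale (standard error 0.117, adjusted p = 0.000852). SUM149PT KD cells had 6.21 and 7.04 CPM, against 7.93 and 9.19 CPM in LNA NS cells, a fall of 0.37 (adjusted p = 0.0418). In HCC38, KD cells had 16.1 and 18.7 CPM, against 18.7 and 19.3 CPM in LNA NS cells, nearly touching, and −0.13 on the log2 scale did not pass (adjusted p = 0.457). The call in SUM149PT was lost without the first KD library (adjusted p = 0.258) or the second LNA NS library (adjusted p = 0.282). MXD3 overlaps RAB24 on its own strand and PRELID1 on the other, so its counts depend on how shared reads were assigned.

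MNT, the antagonist that most cells carry at all times, lies on chromosome 17 (2287367 to 2304398). MDA-MB-468 KD cells had 19.9 and 19.3 CPM, against 25.7 and 33.8 CPM in LNA NS cells. In SUM149PT, KD cells had 38.0 and 39.9 CPM, against 58.8 and 45.8 CPM in LNA NS cells. In HCC38, KD cells had 12.6 and 15.2 CPM, against 14.4 and 20.4 CPM in LNA NS cells. The LNA NS libraries of each line stood far from each other and in HCC38 they overlapped the KD range. MNT fell by 0.60 in MDA-MB-468 (adjusted p = 0.00918) and by 0.43 in SUM149PT (adjusted p = 0.0648), and −0.33 in HCC38 did not pass (adjusted p = 0.182). Without the second MDA-MB-468 LNA NS library the value was −0.40 (adjusted p = 0.144). In SUM149PT the call was lost without the first LNA NS library (−0.23, adjusted p = 0.443), the first KD library (−0.40, adjusted p = 0.220) or the second KD library (−0.46, adjusted p = 0.156), and in HCC38 it was gained without the first LNA NS library (−0.57, adjusted p = 0.0427). Both MNT and MXD4 carry the E-box shown above, and they moved in opposite directions. A role of the E-box was not tested.

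MGA, the largest gene of the group, spans 151948 bases of chromosome 15 (41913332 to 42065279). It had 49.5 and 44.8 CPM in MDA-MB-468 KD cells, against 71.0 and 79.3 CPM in LNA NS cells, a fall of 0.67 on the log2 scale (standard error 0.164, adjusted p = 0.00330). SUM149PT KD cells had 52.9 and 42.4 CPM and LNA NS cells 54.1 and 39.7 CPM, with a log2 fold change of 0.02 (adjusted p = 0.952). In HCC38, KD cells had 108 and 82.9 CPM and LNA NS cells 93.4 and 119 CPM, with a log2 fold change of −0.15 (adjusted p = 0.539). The groups overlapped in both of these lines. With the correction for gene span the value in MDA-MB-468 was −0.19 and no longer passed (adjusted p = 0.222), and the average of the 3 lines was 0.06, against −0.27 without the correction. The average also missed the threshold without the first SUM149PT LNA NS library (−0.19, adjusted p = 0.120).

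MLX, the second partner, lies on chromosome 17 (40719090 to 40725257) and had the smallest change of the 10 members on the average of the lines (log2 −0.12). It had 55.7 and 52.2 CPM in MDA-MB-468 KD cells, against 62.3 and 60.6 CPM in LNA NS cells, a fall of 0.19 on the log2 scale that just passed (adjusted p = 0.0986). SUM149PT had 91.1 and 83.9 CPM in KD cells and 97.8 and 96.9 CPM in LNA NS cells (−0.15, adjusted p = 0.210). HCC38 had 93.8 and 102 CPM in KD cells and 100.4 and 99.3 CPM in LNA NS cells (−0.03, adjusted p = 0.863). The call in MDA-MB-468 was lost under 8 of 10 alternatives, at adjusted p of up to 0.676, and with 10 of 12 single libraries left out. On the average of the lines MLX passed in edgeR (adjusted p = 0.0563). That call was lost under 4 of 9 alternatives and with 5 of 12 single libraries left out. MLX overlaps PSMC3IP on the other strand.

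A call in one line and not in another does not show that the lines differ, so the difference of the 3 knock-down effects was tested in one fit. Of the members 3 passed, against 32.4% of all genes. They were MXD1 (adjusted p = 0.000606), MYCL (adjusted p = 0.0502), with its largest fold in MDA-MB-468, and MGA (adjusted p = 0.0793). The call for MYCL was lost with no filter on low counts (adjusted p = 0.113). It was also lost without the second KD or LNA NS library of MDA-MB-468, either HCC38 KD library or the first HCC38 LNA NS library. That for MGA was lost with the correction for gene span (adjusted p = 0.160). It was also lost without any one MDA-MB-468 library, the first SUM149PT KD library or the second SUM149PT LNA NS library. MAX was just outside (adjusted p = 0.111), and passed in 6 of 9 alternatives. MYC (adjusted p = 0.213), MXD3 (0.151), MXD4 (0.372), MXI1 (0.900), MNT (0.676) and MLX (0.565) did not pass. Of these, MYC passed in 3 of 9 alternatives and MXD3 in 1 of 9. Past a fold of 2 there was 1 member in MDA-MB-468 (MYCL, 20.2% of all genes), 1 in SUM149PT (MYCL, 10.6%) and 2 in HCC38 (MYCL and MXD1, 9.36%).

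Activators were then set against antagonists within each library. Levels were divided by the exon length of each gene, giving CPM per kb of exon, and MXD1, MXD3, MXD4, MXI1 and MNT were summed over the sum of MYC and MYCL. The ratio is a description and has no test. It was 1.01 and 1.05 in MDA-MB-468 KD cells, against 0.842 and 0.840 in LNA NS cells. SUM149PT had 0.308 and 0.325 in KD cells, against 0.246 and 0.235 in LNA NS cells. HCC38 had 0.546 and 0.595 in KD cells, against 0.335 and 0.353 in LNA NS cells. Both KD libraries were above both LNA NS libraries in every line, by 1.23-fold, 1.32-fold and 1.66-fold in the order of the lines just given.

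The ratio rested on different terms in different lines. In HCC38 the summed antagonists were 27.0 and 27.4 in KD cells, against 16.4 and 17.1 CPM per kb in LNA NS cells, while the activators overlapped at 49.4 and 46.0 in KD cells and 48.8 and 48.3 in LNA NS cells. In SUM149PT the activators were 58.1 and 55.2 in KD cells, against 71.6 and 66.5 in LNA NS cells, and the antagonists were 17.9 and 18.0 in KD cells, against 17.6 and 15.7 in LNA NS cells. MDA-MB-468 had antagonists of 29.9 and 31.3 in KD cells, against 26.3 and 27.5 in LNA NS cells, and activators of 29.5 and 29.8 in KD cells, against 31.3 and 32.7 in LNA NS cells. MYC made up nearly all of the activator sum, so the large fold rise of MYCL moved it little. With coding length in place of exon length the log2 difference was 0.44, 0.49 and 0.89 in MDA-MB-468, SUM149PT and HCC38, against 0.29, 0.40 and 0.73 with exon length. The ratio itself was then 2.63 and 2.77 in MDA-MB-468 KD cells, against 1.98 and 2.00 in LNA NS cells. SUM149PT had 0.765 and 0.795 in KD cells, against 0.562 and 0.548 in LNA NS cells. HCC38 had 1.57 and 1.68 in KD cells, against 0.859 and 0.893 in LNA NS cells. The level of the ratio thus depends on the length chosen.

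**Figure D3:**
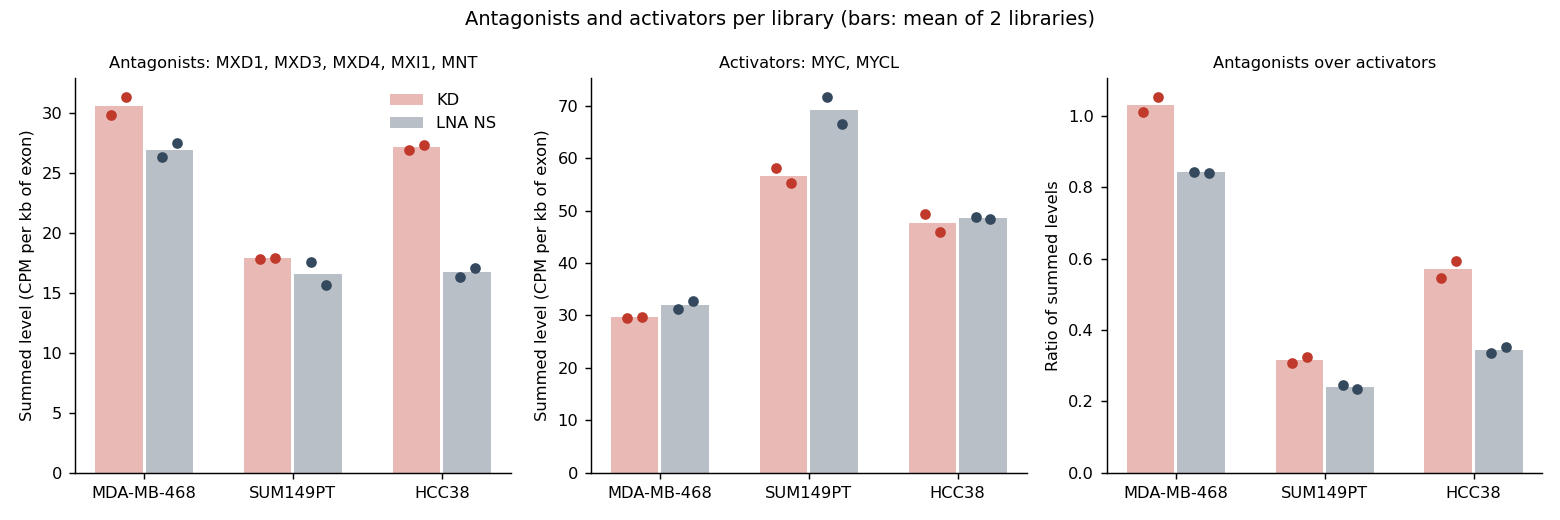
Bars are the mean of 2 libraries and points are the libraries, KD left of LNA NS, for the summed antagonists, the summed activators (both in CPM per kb of exon) and their ratio. The KD ratio is above the LNA NS ratio in each line, at 1.03 against 0.841 in MDA-MB-468, 0.317 against 0.240 in SUM149PT and 0.570 against 0.344 in HCC38.

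Without knock-down the lines already differed in the make-up of the network. MDA-MB-468 against SUM149PT gave 10 members past the threshold (68.5% of all genes), MDA-MB-468 against HCC38 gave 9 (71.4%), and SUM149PT against HCC38 gave 9 (69.6%). Per length, MYC was the highest member in each line, with SUM149PT at 68.9 ± 3.52 CPM per kb, HCC38 at 48.1 ± 0.308 and MDA-MB-468 at 31.9 ± 1.01 (SD, n = 2 libraries each), and every pair of lines differed. MYCL was the lowest member, with MDA-MB-468 at 0.114 ± 0.0103 CPM per kb, SUM149PT at 0.207 ± 0.0510 and HCC38 at 0.424 ± 0.0165. The step of MYCL from MDA-MB-468 to SUM149PT did not pass without the first SUM149PT library (adjusted p = 0.217).

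The antagonists had no common order. MXD1 was 7.76, 3.36 and 4.53 CPM per kb in LNA NS cells of MDA-MB-468, SUM149PT and HCC38, and MXD3 was 8.19, 1.80 and 4.01, so both were highest in MDA-MB-468 and lowest in SUM149PT. MXD4 was highest in HCC38 (3.06, 1.96 and 4.11 in the same order of lines). MXI1 was highest in MDA-MB-468 (4.48, 3.48 and 2.07), and its step to SUM149PT rested on the second SUM149PT library (adjusted p = 0.170 without it). MNT was highest in SUM149PT (3.42, 6.01 and 2.00), with a log2 difference of 1.59 from HCC38 (adjusted p = 7.94e-07). MGA was highest in HCC38 (3.74, 2.34 and 5.29), and its step between MDA-MB-468 and HCC38 was lost without the first MDA-MB-468 library (adjusted p = 0.134) or the second HCC38 library (adjusted p = 0.201). MAX was 5.77, 9.70 and 5.94, and MDA-MB-468 and HCC38 did not differ beyond their spread (log2 difference −0.04, standard error 0.0995, adjusted p = 0.718). MLX was 14.4, 22.9 and 23.5, and SUM149PT and HCC38 did not differ beyond their spread (−0.04, standard error 0.0874, adjusted p = 0.733). Line and culture medium cannot be told apart in these comparisons.

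**Figure D4:**
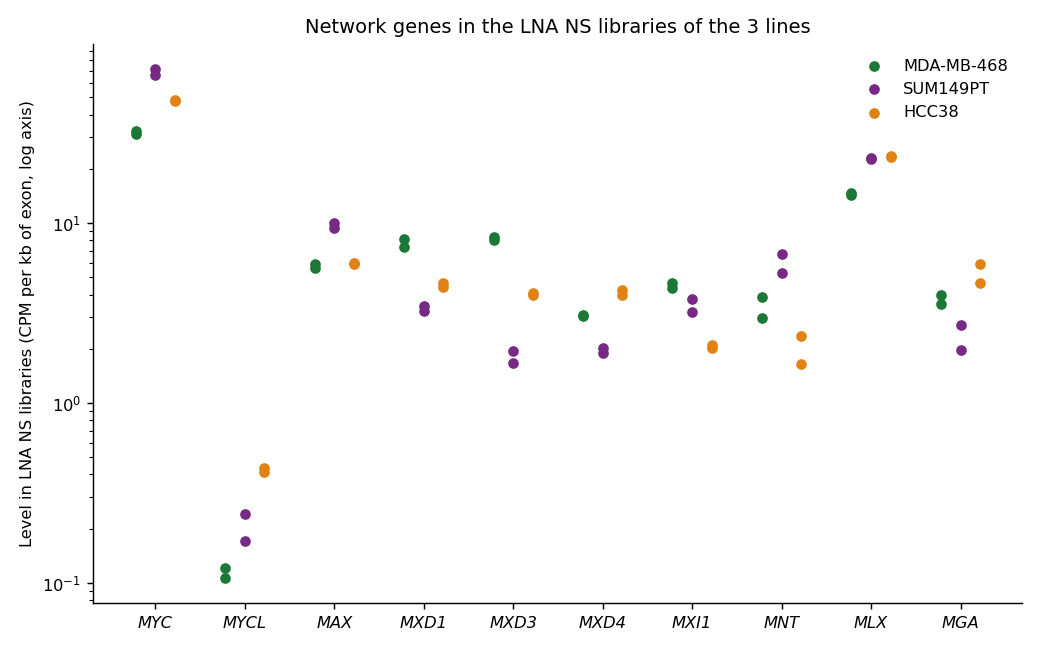
Each point is one LNA NS library, with the level of each member in CPM per kb of exon on a log axis and the 3 lines side by side. MYC and MLX stand above the rest in every line, MYCL stands below, and MXD3 spreads over the lines from 1.80 in SUM149PT to 8.19 in MDA-MB-468.

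Of the 3 network genes outside the 10, MLXIP, a glucose sensor that pairs with MLX, fell by 0.35 on the average of the lines (adjusted p = 0.000482). MYCN and MLXIPL were near the limit of detection, with 296 and 183 counts over all libraries, and did not pass (adjusted p = 0.9998 and 0.154). The genes whose log2 CPM over the 12 libraries followed that of MYC most closely among 14832 compared were RBMS2 (Pearson r = 0.992, Spearman rho 0.958), ACTG1 (0.991, 0.972) and RAC3 (0.991, 0.930). MYC averaged 195, 421 and 294 CPM in LNA NS cells of MDA-MB-468, SUM149PT and HCC38, and changed less with knock-down than between lines. Libraries of a line share that line, so these values chiefly describe the pattern over lines.

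Lists of genes tied to the network by textbook roles were followed on the average of the 3 lines, beside 28.4% of all genes that rose and 26.5% that fell. A gene that passed on average need not have passed in every line. Targets of MYC in ribosome biogenesis went both ways: of 38 tested, 17 rose, 14 fell (9 under upper quartile factors) and 7 did not pass, with a median log2 fold change of 0.06 beside 0.04 over all genes. RRP1B, a nucleolar protein, fell by 1.65 (adjusted p = 6.27e-11). UBTF, the factor that loads RNA polymerase I, fell by 0.59 (adjusted p = 9.20e-08), and TCOF1, another rDNA transcription factor, fell by 0.59 (adjusted p = 3.31e-07). RRP12, which helps to export pre-ribosomes, fell in MDA-MB-468 (−1.78) and SUM149PT (−0.87) and rose in HCC38 (0.37).

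Targets in nucleotide and polyamine synthesis had 6 of 25 that rose and 8 that fell, with a median of −0.01, but 11 that rose and 5 that fell under upper quartile factors. Thymidylate synthase TYMS fell by 0.76 (adjusted p = 2.81e-08), CTP synthase CTPS1 by 0.65 (adjusted p = 2.68e-08) and the folate enzyme SHMT1 by 0.82 (adjusted p = 5.06e-09), while MTHFD2, the mitochondrial folate enzyme, rose by 0.66 (adjusted p = 4.18e-08). Growth and metabolism targets had 9 of 24 that rose and 5 that fell (9 with the correction for gene span), with a median of 0.06. SLC3A2 and SLC7A5, which form one amino acid transporter, rose by 0.90 (adjusted p = 8.80e-10) and 0.59 (adjusted p = 8.27e-08), but SLC7A5 did not pass in SUM149PT (0.15, adjusted p = 0.204). Genes that MYC represses through MIZ1 had 5 of 14 that rose and 5 that fell (3 under upper quartile factors), with a median of 0.22. NDRG1, a stress-responsive gene, fell by 0.72 (adjusted p = 2.01e-07), with log2 fold changes of −1.81, 0.0042 and −0.36 in MDA-MB-468, SUM149PT and HCC38. The stress gene GADD45A rose by 0.68 (adjusted p = 2.33e-06) and the cyclin kinase inhibitor CDKN2C fell by 0.40 (adjusted p = 7.38e-05). By line, GADD45A had 1.42, 0.24 and 0.38 in MDA-MB-468, SUM149PT and HCC38, and did not pass in SUM149PT (adjusted p = 0.204). CDKN2C did not pass in HCC38 (−0.10, adjusted p = 0.534).

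Cofactors moved in both directions too. Among coactivators and elongation partners 10 of 19 rose and 6 fell (median 0.11). The chromatin remodeler EP400 fell by 1.19 (adjusted p = 1.92e-07), and the elongation cyclin CCNT1 rose by 0.79 (adjusted p = 4.29e-07). Of the genes that control turnover of MYC protein 8 of 21 rose and 11 fell (median −0.13). HUWE1, a giant ubiquitin ligase, fell by 1.27 (adjusted p = 7.87e-08). Regulators of the MYC mRNA and promoter had 8 of 19 that rose and 4 that fell (median 0.19), but 13 that rose under upper quartile factors and 2 that fell with the correction for gene span, with the mRNA-destabilizing protein ZFP36 up by 0.67 (adjusted p = 5.50e-08) and the mRNA-binding protein IGF2BP2 down, at −0.74 (adjusted p = 4.76e-07).

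The corepressor used by the antagonists had 6 of 18 genes that rose and 8 that fell (median −0.02). Its subunits SAP18 and ARID4B rose by 0.57 (adjusted p = 4.65e-07) and 0.65 (adjusted p = 3.65e-06), and SAP30 fell by 0.67 (adjusted p = 1.68e-07). The MGA complex PRC1.6 had 5 of 13 that rose and 5 that fell (median −0.00017), and TFDP1, which pairs with E2F factors, fell by 1.38 (adjusted p = 1.02e-11). Of 16 germ cell genes that PRC1.6 represses, 7 had enough counts, of which 3 rose and 1 fell (STAG3, −0.49, adjusted p = 0.0655, and 0 fell with DESeq2 or upper quartile factors). MEIOC, a meiosis gene, rose by 0.82 on average (adjusted p = 0.000156), with log2 fold changes of 2.25, 0.11 and 0.11 in MDA-MB-468, SUM149PT and HCC38. Of 9 tested targets of the MLX partners 4 rose and 1 fell (median 0.09, and 2 fell with the correction for gene span), with the arrestin-like genes ARRDC2 and ARRDC3 up by 0.89 (adjusted p = 1.14e-09) and 0.71 (adjusted p = 5.78e-06) and ATP citrate lyase ACLY down, at −0.71 (adjusted p = 1.68e-07). Among the genes given here, SHMT1, TYMS, MTHFD2, ARID4B and MEIOC overlap a protein-coding neighbor.

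**Figure D5:**
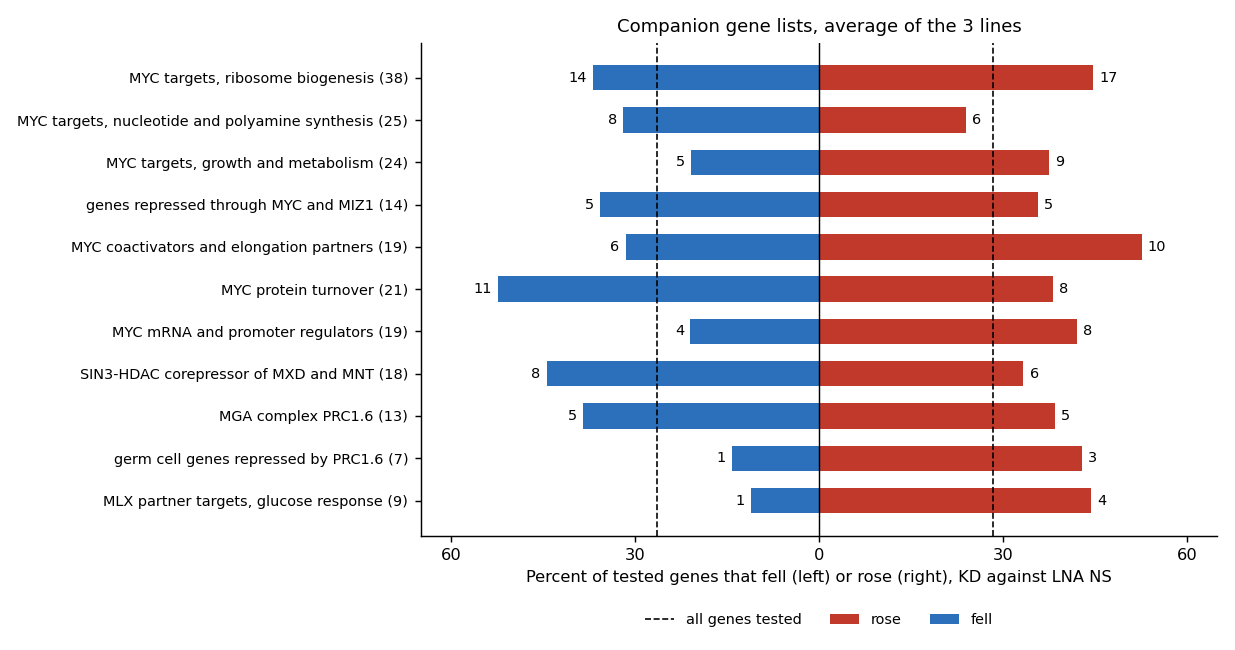
Bars give the percent of tested genes of each companion list that rose (right) or fell (left) on the average of the 3 lines, with the gene counts at their ends and the number tested after each name. Dashed lines mark all genes tested, at 28.4% that rose and 26.5% that fell, and each list has genes on both sides, except that no germ cell gene fell under upper quartile factors, DESeq2 or a replicate block.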

How the data were processed

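Polyadenylated RNA was sequenced with a strand-specific kit in 12 libraries. Raw gene-level counts, whole numbers without scaling, are what the authors deposited. The study's methods name STAR as aligner on GRCh37 and HTSeq as counter, whereas the submitters' notes name TopHat2 2.0.13 and HTSeq 0.6.0 with CASAVA 1.8.4, bedtools 2.17.0, DESeq 3.0 and R 3.1.1. For the counting, annotation release and strand setting are not given in the sources used here. Lines for reads without a gene (5) held 40.8% to 53.7% of all counts and stayed out of library sizes and tests.

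Genes passing filterByExpr (minimum count 10, total 15; 21325) entered 1 edgeR 4.0.16 quasi-likelihood fit (R 4.3.3, limma 3.58.1) with TMM factors and 6 group means, because a line alone has 2 libraries against 2. It had 6 residual degrees of freedom and a common dispersion of 0.0109. P-values were adjusted by Benjamini-Hochberg over all genes, with calls under 0.1. CPM per kb used the union of exons in a GENCODE annotation on GRCh37, which matched 55665 of 63677 genes. Promoters came from RefSeq. Gapmer matches were sought with Python 3.11.15. Figures used matplotlib 3.10.9.

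Alternatives were RLE, upper quartile or no factors, other count filters, DESeq2 1.42.0, each line alone, a replicate block, an offset for gene span, other lengths for the ratio, and each library left out. On simulated counts for 19890 genes, 55.2%, 56.7% and 59.7% of 1.5-fold changes were recovered in MDA-MB-468, SUM149PT and HCC38, and 97.0%, 97.0% and 98.5% of 2-fold changes. The simulation changed 67 genes at each of these folds and left nearly all others unchanged, whereas 34.0% to 50.6% of genes passed in these lines. Its recovery may therefore not carry over to these data.

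The text names the 10 members, from each list up to 4 genes, ranked by adjusted p in the average of the lines, with a mean of at least 1 CPM, the 3 genes most correlated with MYC, and the lncRNA. ESR1, KRT5, PTPRC, CD3D, MYCN and MLXIPL were named beyond this rule. Members, lists and tests were chosen with earlier results of these data known. Some genes that this rule selects are not reported here.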

Additional observations from a re-analysis of the deposited data

Results flagged for a closer look

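The effect of the knock-down differed between the lines for 3 of the 10 members, against 32.4% of all genes, by an F test of the difference in edgeR. For MXD1 the adjusted p was 0.000606, with log2 fold changes of 0.59, 0.19 and 1.26 in MDA-MB-468, SUM149PT and HCC38, and all 6 KD libraries were above the LNA NS libraries of their line. For MYCL it was 0.0502, with 2.25, 1.85 and 1.14 in the same order of lines. Over its alternatives and single libraries left out, the adjusted p of MYCL ran from 0.0375 to 0.142. For MGA it was 0.0793, with −0.67, 0.02 and −0.15, and it ran from 0.000786 to 0.271. Among the named list genes RRP12 passed in opposite directions, with −1.78, −0.87 and 0.37, and an adjusted p of 6.54e-07 for the difference.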

How the results depend on the processing

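The counts of members past the threshold kept within 1.5 times of the reported ones under most alternatives. The exceptions were HCC38 with the correction for gene span (8, of which 4 rose and 4 fell, against 34.5% of all genes) and the difference between lines. That difference had 5 members under upper quartile factors, 6 with at least 10 counts in every library and 5 with DESeq2. The share of all genes passing it under these settings is not given here. With each library left out the counts ran from 7 to 9 in MDA-MB-468, 5 to 7 in SUM149PT, 4 to 5 in HCC38, 8 to 10 on average and 1 to 3 for the difference, which was 1 without the second MDA-MB-468 KD or LNA NS library. They ran from 9 to 10 for LNA NS MDA-MB-468 against SUM149PT, 8 to 9 for MDA-MB-468 against HCC38 and 9 to 9 for SUM149PT against HCC38. For the log2 ratio of antagonists to activators, the difference of KD minus LNA NS was followed with a library left out. This difference ran from 0.26 to 0.32 in MDA-MB-468, 0.36 to 0.44 in SUM149PT and 0.67 to 0.79 in HCC38. With coding length it was 0.44, 0.49 and 0.89. Changes of sign concerned values near 0 that had not passed, apart from MGA on average (0.063 with the correction for gene span). MYC turned to 0.0061 in MDA-MB-468 under upper quartile factors, and in HCC38 to 0.084 under upper quartile factors, 0.018 with library size only and 0.012 with at least 10 counts in every library. MLX in HCC38 turned to 0.00092 under RLE factors, 0.10 under upper quartile factors, 0.033 with library size only, 0.027 with at least 10 counts in every library and 0.00058 with DESeq2. With the correction for gene span MGA in HCC38 turned to 0.20, MAX in HCC38 to 0.0045, and MAX between LNA NS MDA-MB-468 and HCC38 to 0.087. With 1 library left out, the values that changed sign ran from −0.12 to 0.0089 for MYC in HCC38, −0.090 to 0.014 for MLX in HCC38, −0.38 to 0.031 for MGA in HCC38, −0.19 to 0.27 for MGA in SUM149PT and −0.065 to 0.023 for MAX between LNA NS MDA-MB-468 and HCC38. The cause was not tested. Upper quartile factors moved the median of all genes to 0.14, 0.09 and 0.13 in MDA-MB-468, SUM149PT and HCC38 and to 0.15 on average. Under them the average fall of MYC did not pass (−0.05, adjusted p = 0.392), nor did those of MLX (−0.01, adjusted p = 0.864) and MGA (−0.16, adjusted p = 0.147). List counts that moved by over 1.5 times were chiefly under these factors, where ribosome biogenesis genes that fell numbered 9 and regulators of MYC mRNA that rose 13.

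Replicate numbers were not used as pairs in the main fit. Same-numbered libraries correlated at −0.02, 0.16 and −0.25 in their deviations in MDA-MB-468, SUM149PT and HCC38. These values cannot show whether such libraries were prepared together. With a replicate block within line the counts were 8, 7 and 4, with 10 on average and 3 for the difference. With the HCC38 numbers crossed, chosen after seeing the data, they were 9, 7 and 4. At 2 libraries a group, 1.5-fold changes were often missed in the simulation, and smaller ones were not simulated.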
